A study of Mus musculus with 15 samples.

Results

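The genes described here encode 10 transcription factors and cofactors of the erythroid GATA1, TAL1 and LDB1 complexes, namely Gata1, Tal1, Tcf3, Lyl1, Lmo2, Ldb1, Zfpm1, Gfi1b, Cbfa2t3 and Nfe2. They were chosen by name, and all 10 have a place among the 19938 genes that single-symbol transcript clusters of the array stand for. A transcript cluster is the set of probes that reports 1 transcript unit. Cbfa2t3 has 2 clusters and each of the other genes 1, and the cluster with the higher mean signal stands for Cbfa2t3 unless the second is named.

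Expression was measured on 15 Affymetrix mouse arrays, each hybridised with RNA from cells of fetal liver at embryonic day E13.5 that carried TER119, a surface antigen of maturing red cells. All embryos were of the FVB/NJ strain. The 4 doubly mutant samples lacked Klf3 and carried a gene trap in Klf8 (given as Klf3-/- Klf8gt/gt). The 3 Klf3-null samples carried the Klf3 mutation alone, the 4 Klf8 gene-trap samples carried the Klf8 mutation alone, and 4 samples were wild-type. The labels name no allele or treatment that all groups share, and no promoter or Cre that would restrict a mutation to some cells. KLF3 and KLF8 are related zinc-finger proteins that bind CACCC-like sequences and can repress genes through the corepressor CtBP.

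GATA1 is the zinc-finger protein on which red cell maturation depends. In erythroid cells it shares many binding sites with a heterodimer of TAL1 and an E protein such as TCF3. LMO2 bridges that heterodimer to LDB1, which can pair with itself and so join distant enhancers to promoters, as at the beta-globin locus. ZFPM1 (FOG1), GFI1B and CBFA2T3 (ETO2) bring corepressors to these sites, LYL1 is a relative of TAL1, and NFE2 is a leucine-zipper activator that works with small MAF proteins at globin and other erythroid enhancers.

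The deposited values are log2 signals, and their array medians lay between 6.28 and 6.41. All 10 genes read above the array median on 15 of 15 arrays, whereas the second Cbfa2t3 cluster did so on 14. Erythroid markers were strongly present, with a mean over the 7 measured of the 10 listed between 12.23 and 12.83 on every array. Markers of other cells were also present, with 13 or 14 of 15 macrophage markers and 9 of 9 measured hepatocyte markers above the array median on each array. The mean macrophage marker signal was 7.33 to 8.95 on doubly mutant arrays, 8.56 to 9.07 on Klf3-null arrays, 8.68 to 9.22 on Klf8 gene-trap arrays and 9.14 to 9.48 on wild-type arrays. In bulk samples, fewer cells of a type and less RNA per cell cannot be told apart. Klf3 signal averaged 11.37 ± 0.28 in doubly mutant, 11.32 ± 0.14 in Klf3-null, 10.27 ± 0.04 in Klf8 gene-trap and 10.27 ± 0.17 in wild-type samples (SD). It was higher, not lower, with the Klf3 mutation. All doubly mutant and Klf3-null arrays read 11.06 or more, and all other arrays 10.51 or less. The sources used here do not say where its probes lie relative to the deleted part, so it does not check the loss of Klf3. Klf8 signal averaged 7.29 ± 0.55 in doubly mutant, 8.71 ± 0.26 in Klf3-null, 5.39 ± 0.09 in Klf8 gene-trap and 5.36 ± 0.18 in wild-type samples (SD), with the same limit. On all Klf8 gene-trap and wild-type arrays it lay below the array median.

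The tests below are limma's moderated test over all 23410 clusters with a gene symbol, with Benjamini-Hochberg adjustment, and a gene is called at an adjusted p below 0.05. No label ties the replicates to separate embryos, so the p-values reflect how far these samples scatter, and some of that scatter may be technical. Doubly mutant array 1 and Klf8 gene-trap array 1 deviated together from their group means over all tested clusters (r = 0.53). They gave the highest reading of their own group for 8 and 9 of the 10 genes, so each result that uses them was also computed without both.

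The plot of the 10 genes by sample gives all values together, and the differences between genotypes are plotted after it. Against wild-type, the doubly mutant samples held more Ldb1 and less Nfe2 and Cbfa2t3. These 3 of the 10 genes were called, 1 higher and 2 lower, where 3.3% of all tested clusters were called, 1.52% higher and 1.78% lower. The median log2 difference of the 10 genes was -0.45, beside -0.02 over all clusters tested. No overlap of the arrays was seen for 4 of the 10 genes and for 8.4% of all clusters, and 7 reached an unadjusted p below 0.05, as did 17.9% of all clusters. The Klf3-null comparison with wild-type called 0 of the 10 genes, where 0.585% of all clusters were called (0.521% higher and 0.0641% lower). There 4 genes had an unadjusted p below 0.05 (7.83% of all clusters), and in 5 the arrays did not overlap (14.5% of all clusters). In Klf8 gene-trap samples 0 of the 10 were called against wild-type by limma (0% of all clusters), 0 had an unadjusted p below 0.05 (13.4%), and for 0 were the arrays free of overlap (5.36%). All 10 Klf8 gene-trap differences lay below 0, with a median of -0.15 beside -0.02 over all clusters, and the Klf3-null median was -0.17 beside -0.01. These comparisons share their wild-type arrays. Without doubly mutant array 1 and Klf8 gene-trap array 1, 7 of the 10 genes were called between doubly mutant and wild-type samples, Gata1, Tal1, Gfi1b and Lyl1 lower besides the 3 above, but 2260 of the 23410 clusters were then called in place of 772. Between Klf8 gene-trap and wild-type samples 0 of the 10 were called without these arrays, while 2917 clusters were called in place of 0.

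**Figure D1:**
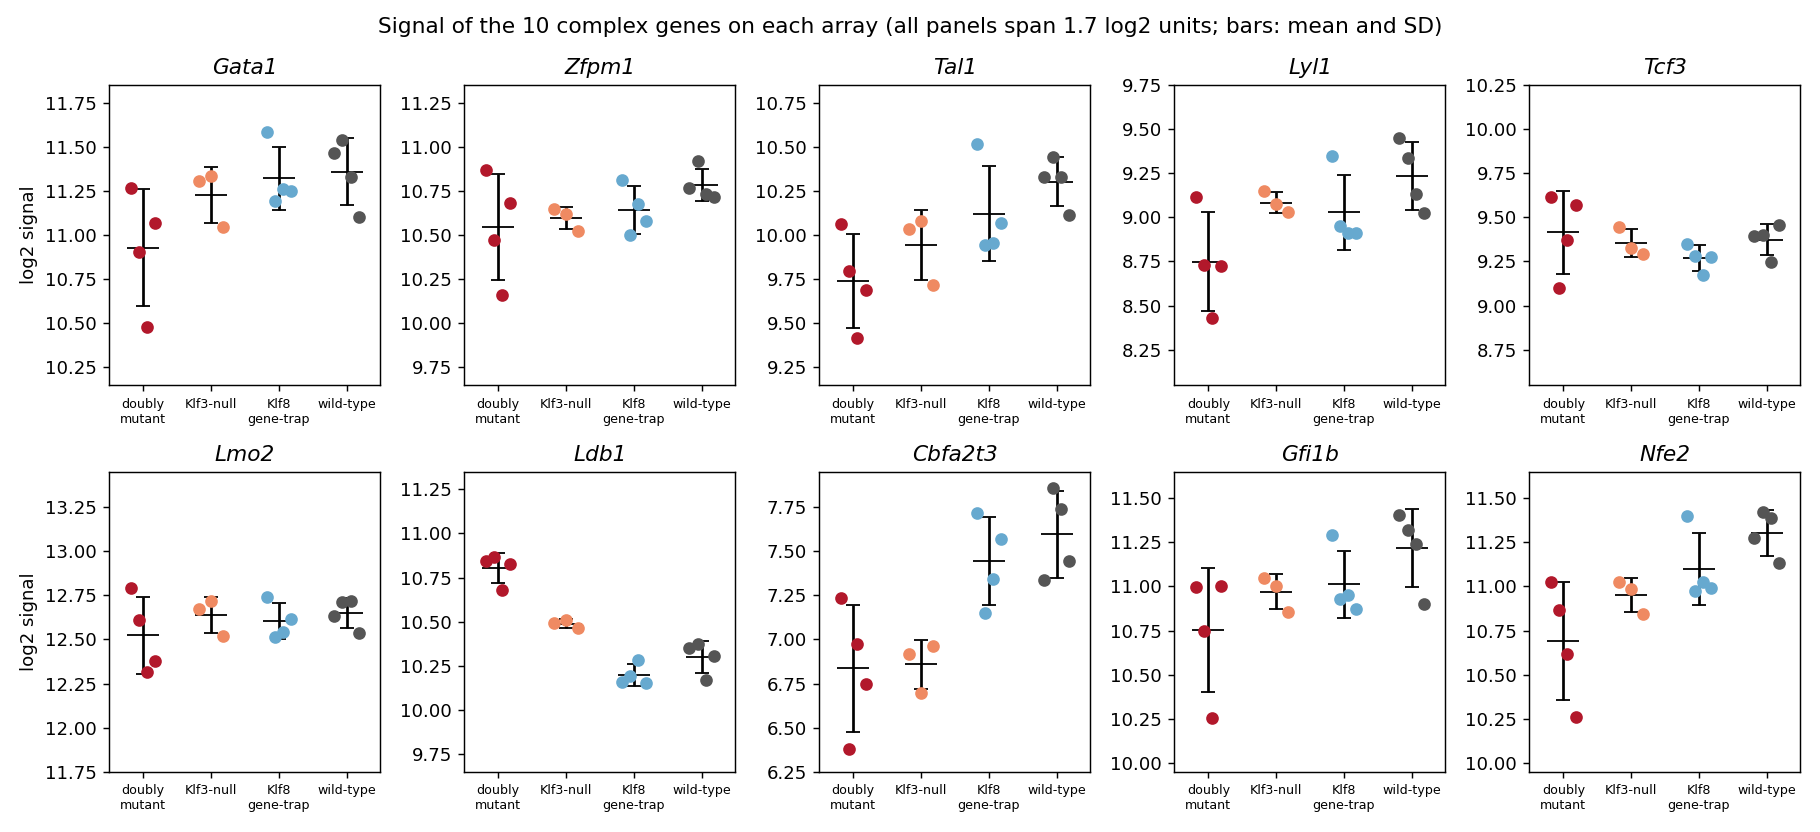
Log2 signal of each of the 10 genes on every array, with 1 panel per gene, points for single arrays and bars for the group mean. Doubly mutant Ldb1 points (10.68 to 10.87) lie above all others, whereas doubly mutant Nfe2 points (10.26 to 11.03) lie below all wild-type points (11.13 to 11.42).

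**Figure D2:**
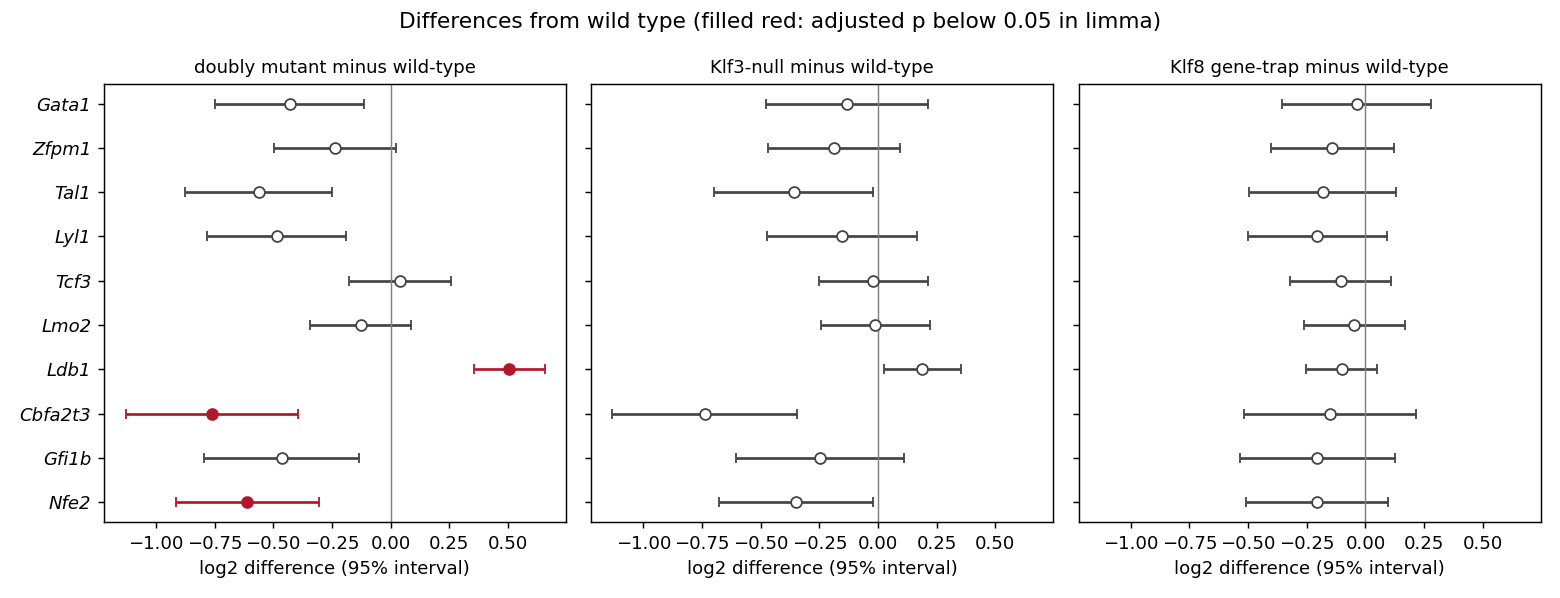
Log2 difference of each of the 10 genes from wild-type, in panels for doubly mutant, Klf3-null and Klf8 gene-trap samples, with 95% confidence intervals from limma and filled points for an adjusted p below 0.05. In the doubly mutant panel Ldb1 (0.51) is called above 0 and Nfe2 (-0.61) and Cbfa2t3 (-0.76) below 0, and the other panels hold no called gene.

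LDB1 is the adaptor that joins the DNA-bound factors to one another over distance. Its gene (chr19:46031525-46048145, GRCm38.p6) gave signals of 10.84, 10.87, 10.68 and 10.83 in doubly mutant samples and 10.49, 10.51 and 10.46 in Klf3-null samples. The signals were 10.16, 10.19, 10.28 and 10.15 in Klf8 gene-trap samples and 10.35, 10.37, 10.17 and 10.31 in wild-type samples. All 4 doubly mutant arrays stood above all Klf3-null arrays, and these stood above every Klf8 gene-trap and wild-type array, which overlapped each other. Within genotypes Ldb1 varied least of the 10 genes, with a pooled SD of 0.073 log2 units.

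Ldb1 rose 1.42-fold in doubly mutant against wild-type samples, a log2 difference of 0.51 ± 0.07 (SE, adjusted p = 6.49e-04, limma). Its 95% confidence interval ran from 0.35 to 0.66, and it ranked 117 among 23410 clusters by p. Against Klf8 gene-trap samples the doubly mutant level was 1.52-fold higher, at 0.61 ± 0.07 (SE, adjusted p = 1.51e-04, limma). Ldb1 was the 1 gene of the 10 called there, beside 3.35% of all clusters (1.48% higher and 1.87% lower), and the 1 gene whose arrays did not overlap, beside 7.33%. This comparison bears on the loss of Klf3 in embryos that all carry the Klf8 gene trap.

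In Klf3-null samples alone Ldb1 differed from wild-type by 0.19 ± 0.08 on the log2 scale (SE, adjusted p = 0.571, limma), which was not called, although the arrays did not overlap. The doubly mutant minus Klf3-null difference was 0.32 ± 0.08 (SE, adjusted p = 0.129, limma), also not called, and again without overlap, as in 9.95% of all clusters. By limma 0 of the 10 genes were called between doubly mutant and Klf3-null samples, where 0.047% of all clusters were called (0.0427% higher and 0.00427% lower), and 2 genes, Ldb1 and Lyl1, had an unadjusted p below 0.05, as did 12.9% of all clusters. The Klf8 gene trap on its own gave an Ldb1 difference of -0.10 ± 0.07 (SE, adjusted p = 0.530, limma) from wild-type.

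Whether the change with Klf3 loss differed between embryos with and without the Klf8 gene trap was tested as an interaction. For Ldb1 this term was 0.42 ± 0.10 (SE) with a 95% interval from 0.20 to 0.64, but its adjusted p was 0.133 (limma). The interaction called 0 of the 10 genes, where 0.00427% of all clusters were called, and Ldb1 alone among the 10 had an unadjusted p below 0.05, beside 14.4% of all clusters. The Ldb1 interaction was called with array weights and with the mean erythroid marker signal as a covariate, the second an alternative chosen after seeing the data, but 1183 and 1201 of the 23410 clusters were then called, in that order, against 1 as designed.

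Across both backgrounds, the mean of the Klf3-deficient genotypes (doubly mutant and Klf3-null) was compared with the mean of the Klf3-intact genotypes (Klf8 gene-trap and wild-type). Ldb1 was 1.32-fold higher in the Klf3-deficient genotypes, at 0.40 ± 0.05 (SE, adjusted p = 2.99e-04, limma), with no overlap between 7 and 8 arrays. Arrays of 1.15% of all clusters did not overlap in this comparison. It called 2 of the 10 genes, Ldb1 higher and Cbfa2t3 lower, beside 2.38% of all clusters (1.45% higher and 0.931% lower), and 6 had an unadjusted p below 0.05, beside 11.3%.

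Without doubly mutant array 1 and Klf8 gene-trap array 1, the Ldb1 difference between doubly mutant and wild-type samples was 0.49, and among male embryos alone it was 0.56, both still called. With the mean macrophage marker signal of each array as a covariate it was 0.47 and no longer called (adjusted p = 0.0635, limma).

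Promoter sequence is shown for Ldb1 and Cbfa2t3 because these genes were called between Klf3-deficient and Klf3-intact genotypes. Neither was called in Klf3-null against wild-type samples, and the second Cbfa2t3 cluster was not called in the pooled comparison (adjusted p = 0.918, limma). KLF proteins recognise CACCC, but binding was not tested. Each window holds the 250 bases before a transcript start listed by RefSeq (GRCm38.p6), written 5′ to 3′ on the gene's own strand, which is the minus strand for both genes. Capitals mark CACCC, its reverse complement GGGTG, the GATA motif GATAA and its reverse complement TTATC. The Ldb1 windows are chr19:46045312-46045561, chr19:46039622-46039871 and chr19:46037071-46037320.
Ldb1, start 1: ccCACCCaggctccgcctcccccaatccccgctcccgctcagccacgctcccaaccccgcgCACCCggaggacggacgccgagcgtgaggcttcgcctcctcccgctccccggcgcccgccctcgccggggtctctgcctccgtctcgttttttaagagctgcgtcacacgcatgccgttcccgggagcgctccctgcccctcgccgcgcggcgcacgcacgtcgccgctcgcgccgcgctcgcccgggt
Ldb1, start 2: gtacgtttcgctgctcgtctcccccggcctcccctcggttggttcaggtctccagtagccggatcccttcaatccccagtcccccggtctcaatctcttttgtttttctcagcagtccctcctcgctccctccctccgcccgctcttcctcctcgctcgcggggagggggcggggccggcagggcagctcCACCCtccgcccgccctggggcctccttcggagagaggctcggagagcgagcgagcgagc
Ldb1, start 3: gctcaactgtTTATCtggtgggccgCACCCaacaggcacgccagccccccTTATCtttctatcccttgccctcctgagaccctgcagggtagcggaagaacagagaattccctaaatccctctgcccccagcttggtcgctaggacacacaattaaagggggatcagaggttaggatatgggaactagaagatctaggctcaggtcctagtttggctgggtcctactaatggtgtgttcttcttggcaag

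The first Ldb1 window holds 2 CACCC matches, and the other windows hold 1 each. The last of them also holds 2 GATAA matches on the opposite strand, a number reached or passed in 4.28% of 32851 windows of the same length. At least 1 CACCC occurred in 52.0% of those windows and at least 2 in 21.1%, while 22.6% held at least 1 GATAA. The table of windows used here matched 8 of the 10 genes, with 12 windows, of which 11 held CACCC and 4 held GATAA on either strand. These matches describe letters only. The Cbfa2t3 windows are chr8:122699110-122699359 and chr8:122678176-122678425.
Cbfa2t3, start 1: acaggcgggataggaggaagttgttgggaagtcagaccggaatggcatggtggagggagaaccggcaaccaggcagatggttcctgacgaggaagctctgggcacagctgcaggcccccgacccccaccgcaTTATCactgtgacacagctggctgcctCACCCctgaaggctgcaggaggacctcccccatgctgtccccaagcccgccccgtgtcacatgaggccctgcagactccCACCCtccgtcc
Cbfa2t3, start 2: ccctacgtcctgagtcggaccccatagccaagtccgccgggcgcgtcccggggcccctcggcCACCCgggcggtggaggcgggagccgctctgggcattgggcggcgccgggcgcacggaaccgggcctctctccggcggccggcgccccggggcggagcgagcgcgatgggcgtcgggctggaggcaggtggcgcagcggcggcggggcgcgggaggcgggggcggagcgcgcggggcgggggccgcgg

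The first Cbfa2t3 window holds 2 CACCC matches and 1 GATAA match, and the second holds 1 CACCC match.

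CBFA2T3 is the corepressor that restrains TAL1 target genes until erythroid cells mature. The signals of Cbfa2t3 (chr8:122625136-122699332) were 7.24, 6.38, 6.98 and 6.75 in doubly mutant samples and 6.92, 6.70 and 6.96 in Klf3-null samples. They were 7.72, 7.15, 7.34 and 7.57 in Klf8 gene-trap samples and 7.34, 7.86, 7.74 and 7.45 in wild-type samples. Every Klf3-deficient array read below every wild-type array, but doubly mutant array 1 overlapped the Klf8 gene-trap arrays. Its pooled SD within genotypes, 0.27 log2 units, was the largest of the 10 genes.

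Cbfa2t3 fell 1.69-fold in doubly mutant against wild-type samples, a log2 difference of -0.76 ± 0.17 (SE, adjusted p = 0.0226, limma). Klf3-null samples differed from wild-type by nearly as much, -0.74 ± 0.19 (SE), but the adjusted p was 0.130 (limma) and the gene was not called. The doubly mutant minus Klf3-null difference was -0.02 ± 0.19, with a 95% interval from -0.42 to 0.37, and the Klf8 gene trap alone gave -0.15 ± 0.17 (SE, adjusted p = 0.707, limma). Pooled over both backgrounds, Cbfa2t3 was 1.59-fold lower in Klf3-deficient than in Klf3-intact genotypes, at -0.67 ± 0.13 (SE, adjusted p = 0.00669, limma). The doubly mutant difference from wild-type was -0.89 without both arrays 1, still called. It was -0.61 without doubly mutant array 2, -0.67 without wild-type array 2 and -0.71 without wild-type array 3, each no longer called (adjusted p = 0.0571, 0.0884 and 0.0841 in that order, limma). With erythroid marker signal as a covariate it was -0.49 (adjusted p = 0.274, limma), and among male embryos -0.79 (adjusted p = 0.121, limma), neither called.

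The second Cbfa2t3 cluster did not show this difference. It read 6.59, 6.50, 6.67 and 6.58 in doubly mutant samples, 6.49, 6.35 and 6.43 in Klf3-null samples, 6.95, 6.24, 6.38 and 6.58 in Klf8 gene-trap samples, and 6.44, 6.85, 6.51 and 6.52 in wild-type samples. Doubly mutant arrays lay inside the wild-type range, and the difference was 0.0082 ± 0.13 (SE, adjusted p = 0.986, limma). The clusters of this gene thus disagree, and the sources used here do not say which transcripts each of them reports.

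NFE2 acts as an activator at erythroid enhancers. Nfe2 (chr15:103248212-103258403) read 11.03, 10.87, 10.62 and 10.26 in doubly mutant samples and 11.03, 10.99 and 10.85 in Klf3-null samples. It read 11.40, 10.97, 11.02 and 10.99 in Klf8 gene-trap samples and 11.28, 11.42, 11.39 and 11.13 in wild-type samples. All doubly mutant and all Klf3-null arrays stood below all wild-type arrays, as did 3 of the 4 Klf8 gene-trap arrays, and array 1 of that group stood inside the wild-type range.

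In doubly mutant samples Nfe2 was 1.53-fold below its wild-type level, at -0.61 ± 0.14 (SE, adjusted p = 0.0283, limma). The log2 difference from wild-type was -0.35 ± 0.15 (SE, adjusted p = 0.619, limma) in Klf3-null samples and -0.21 ± 0.14 (SE, adjusted p = 0.527, limma) in Klf8 gene-trap samples, neither of them called. Without both arrays 1 the doubly mutant difference was -0.72 and still called. Leaving out doubly mutant array 3 or any of wild-type arrays 1, 2 and 3 singly ended the call, with differences from -0.57 to -0.62. With sex as a covariate the difference was -0.57 and also no longer called (adjusted p = 0.0803, limma). Among male embryos it was -0.36 (adjusted p = 0.125, limma), and with erythroid marker signal as a covariate it was -0.14 (adjusted p = 0.533, limma). Erythroid markers averaged 12.72, 12.50, 12.30 and 12.23 on doubly mutant arrays and 12.76, 12.82, 12.83 and 12.67 on wild-type arrays, and doubly mutant array 4, lowest for these markers, was also lowest for Nfe2. The plot across settings gives the doubly mutant difference of the 3 called genes under each alternative except the second Cbfa2t3 cluster.

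**Figure D3:**
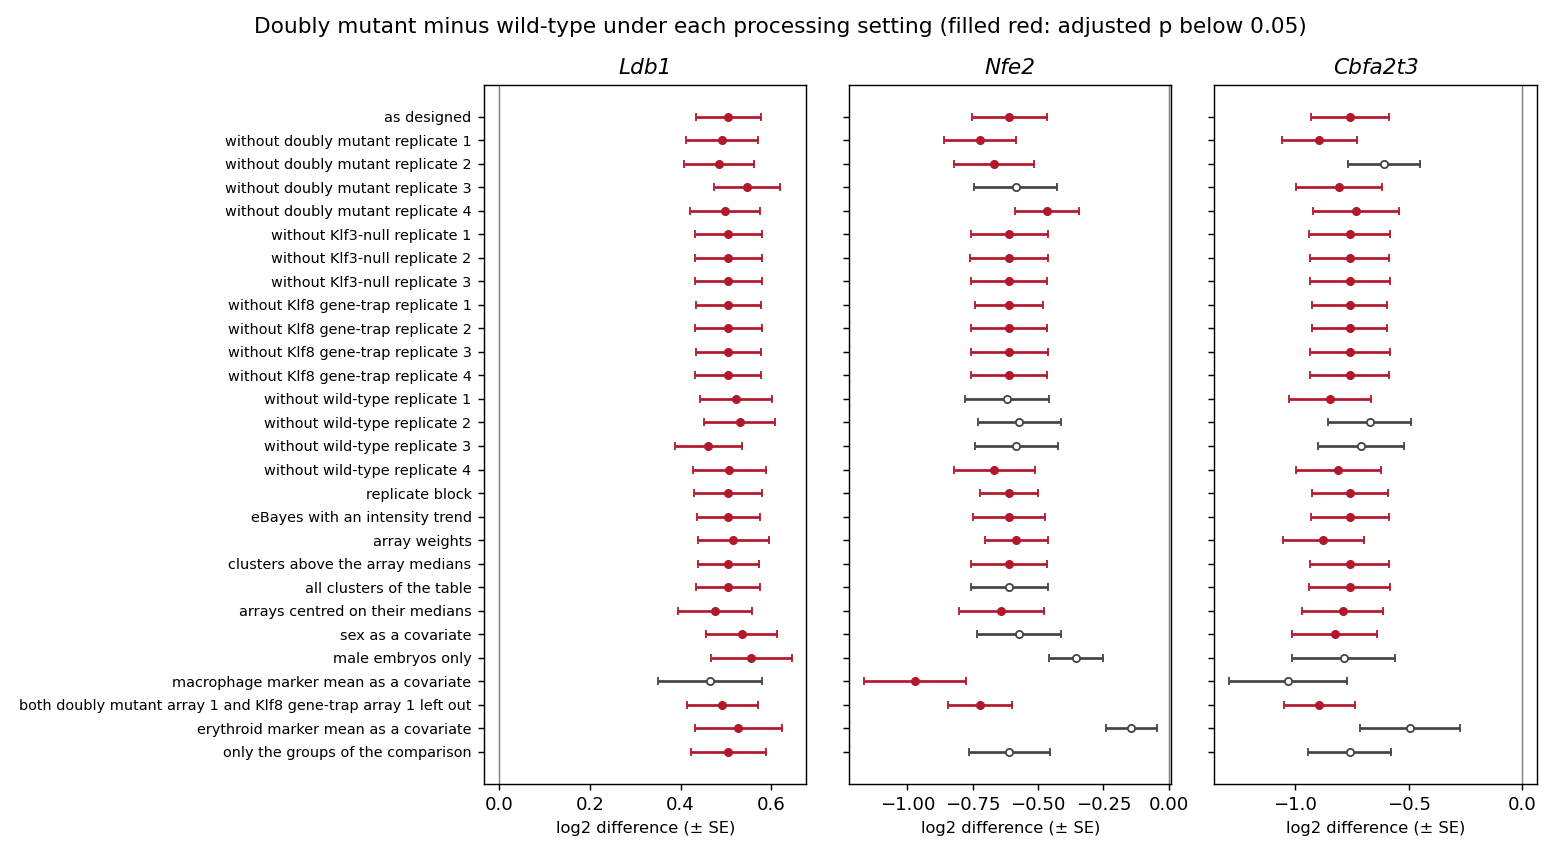
Log2 difference between doubly mutant and wild-type samples (± SE) for Ldb1, Nfe2 and Cbfa2t3 under the chosen setting and the alternatives. Filled points mark an adjusted p below 0.05. Ldb1 was called in 26 of 27 alternatives, Nfe2 in 18 of 27 and Cbfa2t3 in 20 of 28. The second Cbfa2t3 cluster (0.0082, not called) is counted among these 28 but is not drawn. Leaving out single Klf3-null or Klf8 gene-trap arrays cannot alter this difference, only its error and adjusted p, and each gene stayed called. Nfe2 lost its call without doubly mutant array 3 or wild-type array 1, 2 or 3. Cbfa2t3 lost it without doubly mutant array 2 or wild-type array 2 or 3.

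TAL1 is the basic helix-loop-helix factor that anchors the complex to E-box DNA. Tal1 (chr4:115056426-115071755) read 10.06, 9.79, 9.42 and 9.69 in doubly mutant samples and 10.04, 10.08 and 9.71 in Klf3-null samples. The readings were 10.52, 9.94, 9.96 and 10.07 in Klf8 gene-trap samples and 10.33, 10.44, 10.33 and 10.11 in wild-type samples. Doubly mutant and Klf3-null arrays all stood below the wild-type range, and Klf8 gene-trap arrays stood on both sides of it. The doubly mutant difference was -0.56 ± 0.15 (SE, adjusted p = 0.0501, limma), just outside the threshold, and 8 of 27 alternatives called it. With erythroid marker signal as a covariate it was -0.11 (adjusted p = 0.749, limma), and among male embryos -0.37 (adjusted p = 0.145, limma). The Klf3-null difference was -0.36 ± 0.16 (SE, adjusted p = 0.619, limma).

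Gata1 (chrX:7959260-7976663) encodes the factor that gives the complex its name. It read 11.27, 10.90, 10.48 and 11.07 in doubly mutant samples, 11.30, 11.33 and 11.05 in Klf3-null samples, 11.59, 11.19, 11.26 and 11.25 in Klf8 gene-trap samples, and 11.46, 11.54, 11.33 and 11.10 in wild-type samples. Of the doubly mutant arrays, 3 of 4 fell below the wild-type range and array 1 lay within it. The difference of -0.43 ± 0.15 (SE, adjusted p = 0.138, limma) was not called, and in Klf3-null samples it was -0.13 ± 0.16 (SE, adjusted p = 0.868, limma). Gata1 is X-linked, and the sexes were unequal in every comparison with wild-type. Y-linked genes and Xist marked 2 of 4 doubly mutant, 2 of 3 Klf3-null, 2 of 4 Klf8 gene-trap and 0 of 4 wild-type samples as female. The doubly mutant differences among male embryos thus rest on 2 doubly mutant and 4 wild-type samples. The female minus male difference in Gata1 was -0.31 in doubly mutant, 0.27 in Klf3-null and 0.19 in Klf8 gene-trap samples, and so had no common sign. For Nfe2 this difference was -0.51, 0.16 and 0.20 in the same order.

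GFI1B is a repressor whose gene GATA1 activates, and LYL1 is the relative of TAL1. Both genes had their lowest mean in doubly mutant samples. Gfi1b (chr2:28609450-28621982) read 11.00, 10.75, 10.26 and 11.00 in doubly mutant and 11.40, 11.32, 11.24 and 10.90 in wild-type samples, a difference of -0.46 ± 0.16 (SE, adjusted p = 0.123, limma). Its Klf3-null arrays (10.86 to 11.05) and Klf8 gene-trap arrays (10.87 to 11.29) overlapped both. Lyl1 (chr8:84701423-84704716) read 9.12, 8.73, 8.43 and 8.72 in doubly mutant and 9.45, 9.34, 9.13 and 9.02 in wild-type samples, a difference of -0.49 ± 0.14 (SE, adjusted p = 0.0729, limma). Klf3-null arrays of Lyl1 (9.03 to 9.15) stayed inside the wild-type range, while 3 of 4 Klf8 gene-trap arrays (8.91 to 9.35) lay below it. Neither gene was called in any of the 7 comparisons.

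The remaining 3 genes had smaller differences. LMO2 is the bridge between TAL1 and LDB1, and Lmo2 (chr2:103957903-103981878) ranged from 12.32 to 12.79 in doubly mutant and from 12.54 to 12.72 in wild-type samples, a doubly mutant minus wild-type difference of -0.13 ± 0.10 (SE, adjusted p = 0.568, limma). Lmo2 ranged from 12.52 to 12.72 in Klf3-null and from 12.51 to 12.74 in Klf8 gene-trap samples, so all groups overlapped. ZFPM1 is GATA1's own cofactor, and Zfpm1 (chr8:122281856-122337862) ranged from 10.16 to 10.87 in doubly mutant, from 10.52 to 10.65 in Klf3-null, from 10.50 to 10.81 in Klf8 gene-trap and from 10.71 to 10.92 in wild-type samples. The doubly mutant and wild-type ranges of Zfpm1 overlapped and the Klf3-null range did not, with differences of -0.24 ± 0.12 (adjusted p = 0.328, limma) and -0.19 ± 0.13 (adjusted p = 0.767, limma). TCF3 is the E protein that pairs with TAL1, and Tcf3 (chr10:80409541-80433976) ranged from 9.10 to 9.61 in doubly mutant, from 9.29 to 9.45 in Klf3-null, from 9.17 to 9.35 in Klf8 gene-trap and from 9.25 to 9.45 in wild-type samples. Doubly mutant Tcf3 arrays fell on both sides of the wild-type range, 2 above it and 1 below. Its difference of 0.04 ± 0.10 (SE, adjusted p = 0.892, limma) had a 95% interval from -0.18 to 0.26.

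Single samples carried much of the spread. Doubly mutant arrays 2 and 3 fell below all wild-type arrays for 8 of the 10 genes and array 4 for 7, whereas array 1 did so for 3. Their median deviations from the wild-type means were -0.45, -0.65 and -0.28, beside -0.11 for array 1. Klf8 gene-trap arrays 2, 3 and 4 lay below the wild-type mean for all 10 genes and array 1 for 2, and in the Klf3-null group array 3 was lowest for 9. These counts were not made over all clusters, so no background share stands beside them.

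**Figure D4:**
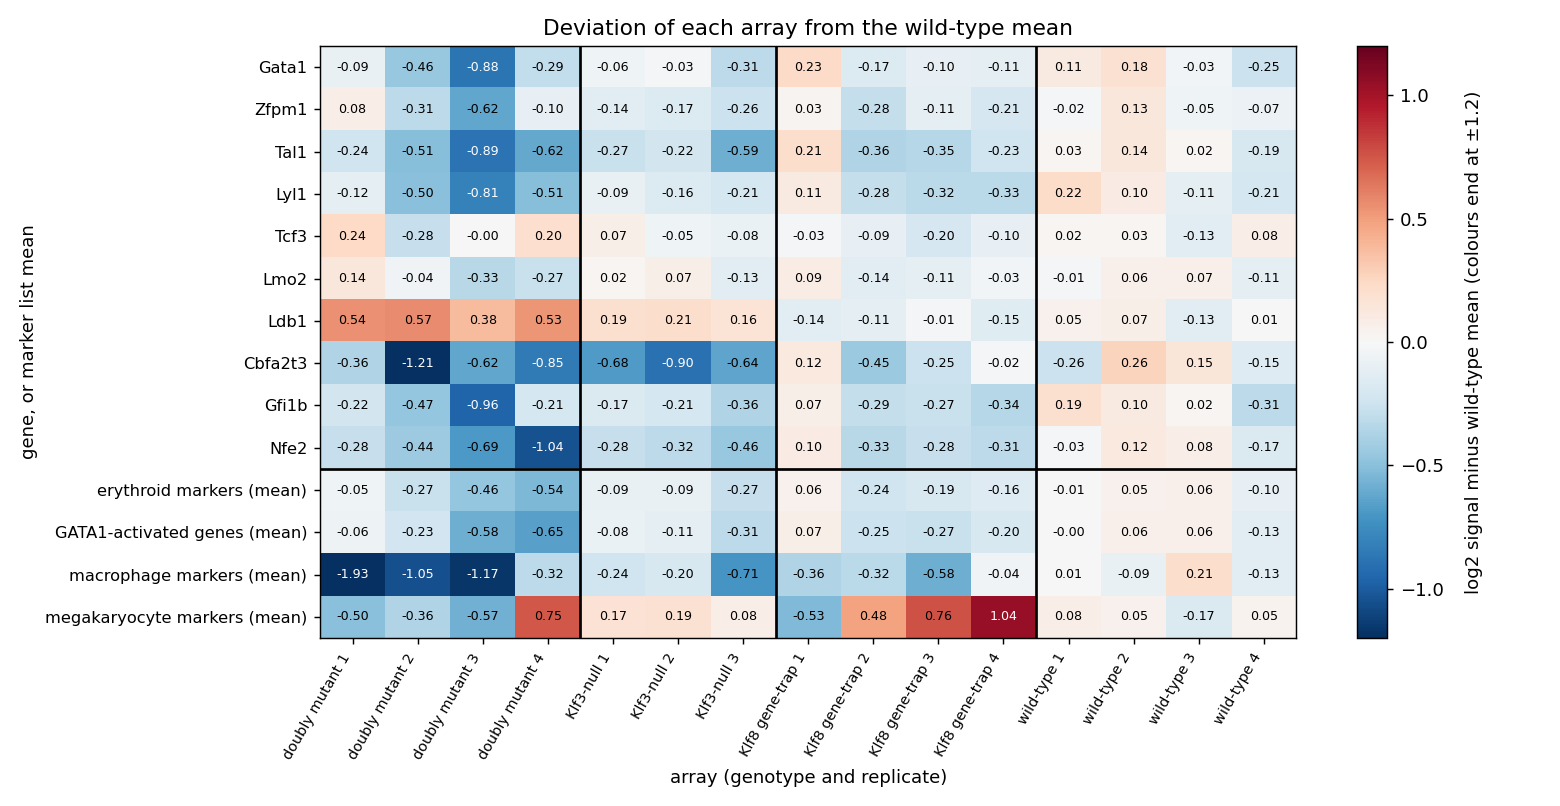
Deviation of each array from the wild-type mean for each of the 10 genes and for the means of 4 gene lists, in log2 units printed in the cells and on a colour scale that ends at 1.2 either side of 0. The column of doubly mutant array 3 has the lowest median deviation, -0.65, and the Ldb1 row is above 0 on all 4 doubly mutant and 3 Klf3-null arrays.

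After removal of the genotype means, the deviations of Gata1 and Gfi1b over the 15 arrays correlated with r = 0.95 (rho = 0.96), those of Gata1 and Zfpm1 with r = 0.93 (rho = 0.87) and those of Tal1 and Lmo2 with r = 0.91 (rho = 0.90). Ldb1 and Cbfa2t3 had r = -0.35 (rho = -0.35). Without doubly mutant array 1 and Klf8 gene-trap array 1 these r were 0.95, 0.88, 0.89 and -0.50 in the same order. Over all 15 arrays the positive pairs above were those with the highest r among the genes described here, and Ldb1 with Cbfa2t3 had the lowest. Without those arrays Nfe2 with Tcf3 (from -0.10 to -0.77) and Lmo2 with Tcf3 (from 0.09 to -0.54) lay below Ldb1 with Cbfa2t3. Some other pairs changed more without these arrays. For Nfe2 r fell from 0.75 to 0.45 with Tal1, from 0.64 to 0.16 with Lyl1 and from 0.50 to 0.07 with Gata1. For Ldb1 it rose from 0.40 to 0.65 with Lyl1 and from 0.47 to 0.60 with Gata1. These are descriptions without a test, since all pairs share the same arrays. The genes nearest to Ldb1 by this measure, among 18637, were Lin52 (r = 0.91), Psg16 (r = 0.87) and Clcn2 (r = 0.87), those nearest to Nfe2 were Ube2c (r = 0.98), Fam104a (r = 0.98) and Dnttip1 (r = 0.98), and those nearest to Cbfa2t3 were Olfr855 (r = 0.89), Wdr25 (r = 0.88) and Ppp1r14bl (r = 0.88). An r of 0.61 for Ldb1, 0.89 for Nfe2 and 0.70 for Cbfa2t3 marked the top 1% of genes, so the measure separates little for Nfe2.

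Of 27 partners and relatives of the 10 genes, all measured, 2 were called lower and 0 higher between doubly mutant and wild-type samples. Of all tested clusters 1.78% were called lower there and 1.52% higher. The median difference of the 27 was 0.0046. Runx1t1, the ETO relative of Cbfa2t3, averaged 8.79 ± 0.47 in doubly mutant and 9.74 ± 0.26 in wild-type samples (SD, n = 4 each), a log2 difference of -0.96 ± 0.21 (SE, adjusted p = 0.0166, limma). Klf1, the erythroid activator that also binds CACCC, averaged 10.96 ± 0.19 in doubly mutant and 11.37 ± 0.11 in wild-type samples (SD, n = 4 each), a difference of -0.41 ± 0.11 (SE, adjusted p = 0.0487, limma). None of the 27 was called in the Klf3-null or the Klf8 gene-trap comparison with wild-type, nor between doubly mutant and Klf8 gene-trap samples. Of 14 corepressor subunits 0 were called in any of the 7 comparisons, and the smallest p between doubly mutant and wild-type samples were those of Mta1 (0.35 ± 0.10, adjusted p = 0.0689, limma) and Rbbp7 (0.20 ± 0.09, adjusted p = 0.247, limma), both subunits of the NuRD complex.

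Among 19 measured of 23 listed genes that GATA1 activates, 4 were called lower and 0 higher in doubly mutant against wild-type samples. Their median difference was -0.41, and 1.78% of all clusters were called lower and 1.52% higher. Besides Klf1 the called genes were Hemgn (-0.50 ± 0.11, adjusted p = 0.0234, limma), Trim58 (-0.98 ± 0.24, adjusted p = 0.0367, limma) and Tfr2 (-0.41 ± 0.10, adjusted p = 0.0414, limma). HEMGN is an erythroid nuclear protein, TRIM58 a ubiquitin ligase of late erythroblasts, and TFR2 a transferrin receptor that is tied to erythropoietin signalling. Tfr2 was also called lower in the pooled Klf3-deficient genotypes (-0.35 ± 0.08, adjusted p = 0.0194, limma), where 0.931% of all clusters were called lower. Klf1 and Hemgn are also on the erythroid marker list, and Klf1 is among the partners given above, so these counts share genes. Erythroid marker signal was lower on doubly mutant arrays as given for Nfe2. In doubly mutant against wild-type samples 7 of 15 macrophage markers were called lower (Adgre1, Cd5l, Timd4, Marco, C1qa, Fcgr1 and Spic), beside 1.78% of all clusters. The median of the 15 was -1.17. With macrophage signal as a covariate the Nfe2 difference was -0.97 and that of Cbfa2t3 -1.03, the second no longer called (adjusted p = 0.0681, limma).

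Of 9 listed genes that GATA1 represses, Spi1, which encodes the myeloid factor PU.1, was the 1 called. Against wild-type, 1.52% of all clusters were called higher in doubly mutant and 0.521% in Klf3-null samples. Spi1 averaged 10.17 ± 0.40 in doubly mutant, 9.67 ± 0.30 in Klf3-null, 7.68 ± 0.20 in Klf8 gene-trap and 7.99 ± 0.23 in wild-type samples (SD). Its log2 difference from wild-type was 2.18 ± 0.18 in doubly mutant and 1.69 ± 0.20 in Klf3-null samples (SE). Gata2, the progenitor factor that GATA1 replaces at shared sites, differed by 0.03 ± 0.09 (SE, adjusted p = 0.925, limma) between doubly mutant and wild-type samples.

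Gata1, Tal1, Gfi1b and Nfe2 also act in megakaryocytes. The mean of the 5 measured of 8 megakaryocyte markers was 9.22 to 10.54 on doubly mutant, 9.87 to 9.98 on Klf3-null, 9.27 to 10.84 on Klf8 gene-trap and 9.62 to 9.88 on wild-type arrays, and 0 of the 5 were called in any of the 7 comparisons. Doubly mutant array 4 was highest of its group for these markers and lowest of all arrays for Nfe2. The part of these markers in the differences was not tested.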

How the data were processed

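RNA of TER119-positive fetal liver cells was measured on 15 Affymetrix arrays. Per the labels' protocols, cells were bound to magnetic beads and RNA was extracted with TRI-Reagent, column-purified and labelled with biotin. The authors deposited 1 log2 signal for each cluster on each array, for which the submitters' processing notes name RMA and Partek without a version. The values hold no detection calls, and the number of arrays limits the precision.

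Genes were named from the platform annotation of 2016. Of 35556 clusters 21789 had 1 symbol, 1621 several and 12146 none, and positions and promoters came from RefSeq. No gene was named from a cluster with several symbols. The tests used limma 3.58.1 in R 4.3.3, with 1 mean per genotype over all 15 arrays, adjusted over 23410 clusters. In simulated data 45% of changes of 0.5 log2 units and 86% of 1 log2 unit were recovered between groups the size of doubly mutant and wild-type, with 9 false calls. The simulated noise was normal, independent between clusters and of equal spread in all genotypes. The arrays here shared deviations across clusters, so these rates need not hold for them.

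The 10 genes, the lists and the alternatives were chosen with earlier results of these data known. Named genes were the 10, called members of the lists, up to 2 with the smallest p of a list with none, and the 3 nearest by correlation. Correlations between arrays ran from 0.974 to 0.992. Deviations of same-numbered doubly mutant and Klf8 gene-trap arrays had r of 0.53, 0.11, 0.16 and 0.18, in order of array number. Differently numbered arrays were not compared, and the labels name no litters.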

Additional observations from a re-analysis of the deposited data

Results flagged for a closer look

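Klf8 gene-trap array 1 stood far above the other 3 arrays of its group for 3 of the 10 genes. Gata1 read 11.59 there, and the next array 11.26. For Nfe2 the reading was 11.40 and the next 11.02, and for Lyl1 it was 9.35 and the next 8.95. The test looked at 33 groups of 4 arrays, and chance flags about 1 group in 20. All 3 readings come from 1 array, so they are not separate events. Erythroid markers averaged 12.82 on that array and 12.53 to 12.61 on the others of its group.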

How the results depend on the processing

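Each result was recomputed with arrays left out singly, the replicate number as a block, array weights, an intensity trend, other sets of clusters, centred arrays, sex, macrophage or erythroid markers as covariates, and other subsets of arrays. Of 1877 recomputed gene values 1734 kept their direction and side of the threshold, 35 became called, 19 lost their call and 88 uncalled values changed sign. One called value reversed, that of Cbfa2t3 between doubly mutant and wild-type samples, which was 0.0082 with its second cluster.

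Ldb1 stayed called in 27 of 27 alternatives against Klf8 gene-trap and in 26 of 26 for Klf3-deficient against intact genotypes. Cbfa2t3 kept its call there in 25 of 27. Between doubly mutant and wild-type samples, where 3 genes were called, single arrays left out gave 1 to 6 calls: 6 without doubly mutant array 1, 5 without Klf8 gene-trap array 1, and 1 without wild-type array 2 or 3. The count was 5 with the replicate block, which added Tal1 and Lyl1, 6 with array weights, 7 without both arrays 1, and 1 each among males, with the macrophage or the erythroid covariate (the second added after seeing the data), or with only the 2 groups fitted. Over all clusters, 772 calls became 1389 without doubly mutant array 1 and 978 without Klf8 gene-trap array 1. They became 403 and 382 without wild-type arrays 2 and 3. The total was 986 with the block, 1098 with array weights and 2260 without both arrays 1. It was 744 among males, 248 with the macrophage covariate, 994 with the erythroid covariate and 295 with only the 2 groups.

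For Klf3-null against wild-type the count of 0 became 1, Cbfa2t3, with array weights, without both arrays 1, and with only the 2 groups. Among all clusters 597, 296 and 481 were then called, in that order, against 137 as designed. For Klf8 gene-trap against wild-type the count of 0 became 2 with array weights, where 4081 of 23410 clusters were called in place of 0. It stayed 0 without Klf8 gene-trap array 1, without both arrays 1 and among males, where 1683, 2917 and 318 clusters were called. Doubly mutant against Klf8 gene-trap gave 1 to 2 calls with single arrays left out (2 without doubly mutant array 1) and 2 without both arrays 1. Among all clusters 723 were called without doubly mutant array 1 and 1245 without both, against 785 as designed. The block changed no call among the 10 in this comparison. Between doubly mutant and Klf3-null samples the erythroid covariate gave 1 call, Ldb1, where 921 of all clusters were called against 11 as designed. For Klf3-deficient against intact genotypes the 2 calls became 2 to 4 with single arrays left out (4 without doubly mutant array 1), 4 with the replicate block, 4 without both arrays 1, 1 among males and 1 with the second Cbfa2t3 cluster. Among all clusters 557 were called as designed and 684 without doubly mutant array 1. With the block 607 were called, without both arrays 1 721, and among males 333. The interaction gave 1 call, Ldb1, with array weights (1183 of all clusters) and 1 with the erythroid covariate (1201), against 1 cluster as designed. The causes were not tested. The labels name no litter for any pair of same-numbered arrays. Deviations of same-numbered arrays had r from 0.07 to 0.16 between doubly mutant and Klf3-null samples. Between doubly mutant and wild-type samples r ran from -0.14 to 0.07, and between Klf3-null and Klf8 gene-trap samples from -0.13 to 0.30.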

Other observations

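Hepatocyte markers give the values of a cell type that the TER119 beads should not bind. The mean over 9 measured of 10 markers was 11.47 to 12.58 on doubly mutant arrays, 12.38 to 12.61 on Klf3-null arrays, 12.42 to 13.05 on Klf8 gene-trap arrays and 12.13 to 12.49 on wild-type arrays. Of these only Ahsg, a plasma protein of liver, was called in any of the 7 comparisons, lower in doubly mutant than in Klf8 gene-trap samples (-1.10 ± 0.26, SE, adjusted p = 0.0328, limma). There 1.87% of all clusters were called lower. Progenitor markers averaged 7.13 to 7.36 on doubly mutant and 7.03 to 7.34 on wild-type arrays, and 0 of 7 were called. Of 4 mast cell markers 0 lay above the array median on any array, and 0 of 7 measured granulocyte markers were called.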
